A study of Mus musculus with 95 samples.

Results

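Among 95 mRNA sequencing libraries of mouse pancreatic islets, 9 libraries held high levels of Dhrs7c: those numbered 66 to 70 and 72 to 75. They were chosen by a measured value, more than 50 CPM of Dhrs7c (counts per 1000000 counts of the library), while the other 86 libraries were below 2 CPM. Library 71 was not analysed here. All 95 libraries came from mice on a high-fat, high-sugar diet with 45 percent fat, and the labels used here give no genotype, strain, age, sex or treatment group for any of them. The labels also do not tie libraries to animals. Since the 9 libraries were picked by a readout and belong to no labelled group, all values below describe these libraries. No test of the 9 against the 86 was run.

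Islets are clusters of hormone-secreting cells in the pancreas. Beta cells make insulin, alpha cells glucagon and delta cells somatostatin, and islet preparations also carry acinar cells, which make the digestive enzymes. An mRNA level in whole islets sums all these cells, so a larger share of a cell type and more RNA per cell cannot be told apart. A read is also assigned to a gene by its sequence, so a gene and a near-identical copy elsewhere in the genome can exchange reads when only a base or so separates them.

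CPM is not corrected for gene length, so values are compared between libraries and not between genes. Totals ran from 22369284 to 29251968 counts in the 9 libraries (median 24939309) and from 16411809 to 34357253 in the others. The number of genes with a count of at least 1 was 18709 to 19827 in the 9 and 18632 to 20198 in the others. The 3 counts used below as a detection floor correspond to 0.103 to 0.134 CPM in the 9 libraries. The labelled tissue was checked by its hormone genes. Ins1, an insulin gene, had a median of 46767 CPM in the 9 libraries and 47823 in the others, with ranges of 28202 to 55236 and 15339.6 to 69820.4. Library 69 stands apart within the 9. Acinar genes took 33.4% of its counts, against 3.98% to 11.9% in the other 8, and its hormone genes summed to 8.57%, against 13.5% to 17.9%.

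Dhrs7c encodes a short-chain dehydrogenase/reductase known from the sarcoplasmic reticulum of heart and skeletal muscle. Its gene lies on chromosome 11 (67798187 to 67816002, GRCm38). Its level was 180 CPM in library 66, 201 in 67, 151 in 68, 130 in 69, 192 in 70, 163 in 72, 203 in 73, 173 in 74 and 123 in 75. The lowest member, library 75, was 79.3-fold above the highest of the other libraries, library 76, at 1.56 CPM. In 16 of the 86 the gene had no count. The 9 values are close to each other beside that distance, and these are the values that chose the libraries.

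The sums of the skeletal and cardiac muscle lists overlapped between the 9 libraries and the others. The summed level of the 7 skeletal muscle markers was 7.67 to 15.2 CPM in the 9 libraries (median 11.6) and 3.27 to 15.6 in the others (median 7.70). The 5 markers that passed the filter described below had a median log2 ratio, 9 over 86, of 0.56, with 3 above 0 and 2 below. Over all genes that ratio was 0.16. The sum of the 7 cardiac markers was 0.229 to 0.847 CPM in the 9 (median 0.542) and 0.232 to 4.82 in the others (median 0.888). For short-chain dehydrogenases and retinoid enzymes, of 31 genes of the list in the table, 25 were autosomal and passed the filter on low values, and Dhrs7c was the 1 gene whose ranges did not overlap. Dhrs7, a gene of the same family, had medians of 32.8 CPM in the 9 and 33.2 in the others.

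Of the 4 tested genes nearest to Dhrs7c, the 2 on one side were level and the 2 on the other side had higher medians in the 9 libraries. Stx8, a membrane fusion protein, had medians of 14.9 CPM in the 9 and 15.6 in the others. Usp43, a ubiquitin protease gene, had medians of 2.32 and 2.13 CPM. Glp2r, the receptor of glucagon-like peptide 2 and the nearest gene on the other side, was higher, at 1.53 to 2.72 CPM with a median of 2.32 against 0 to 1.58 with a median of 0.0686, and its ranges overlapped in that interval. Gas7, farther along, had medians of 8.96 and 4.18 CPM, again with overlapping ranges.

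Of 19919 autosomal genes in the table, 15398 passed the filter of 1 CPM or more in at least 9 of the 95 libraries. A gene was called higher when its lowest value in the 9 libraries was above its highest value in the other 86 and its median in the 9 was 1 CPM or more, and lower in the reverse case. By this rule 99 genes (0.643%) were higher and 69 (0.448%) lower, 1.09% in all. Since the libraries were selected by one of these genes, the share is a description of the set. A higher gene could pass the filter through the 9 libraries alone, which a lower gene could not. With a mean of 1 CPM or more over all 95 libraries as the filter, 65 genes were higher and 67 lower. Of the 99 higher genes, 33 had a gap of at least 2-fold between the sets, as had 18 of the 69 lower genes. Over all 15398 genes the median log2 ratio of the medians, 9 over 86, was 0.16 with 0.5 CPM added to both, and it was -0.01 with TMM scaling, so a ratio near 0.16 is the level of an average gene here.

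Library 69 set many of the lower edges. Without it, 293 genes were higher, all 99 among them, while the number of lower genes stayed at 69. With TMM factors in place of the column sums, 223 genes were higher, 92 of the 99 among them, and 151 were lower, 63 of the 69 among them.

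**Figure D1:**
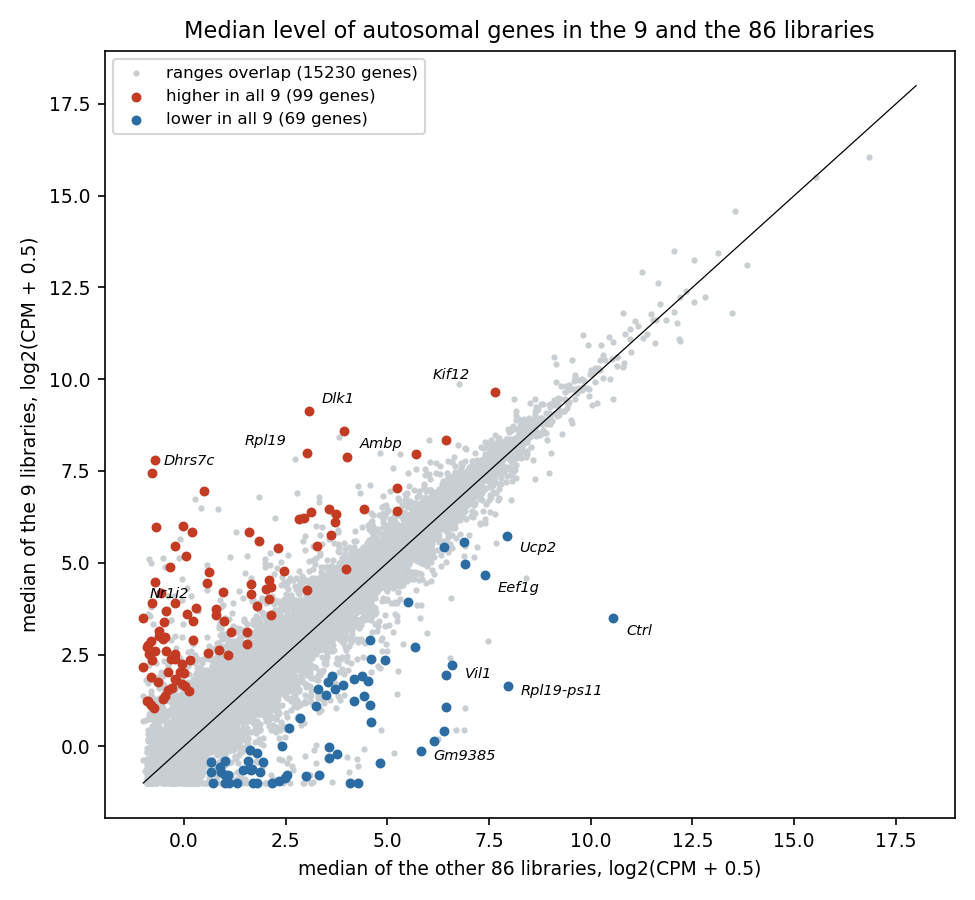
Median level in the 9 libraries (vertical axis) against the median in the other 86 (horizontal axis), both as log2(CPM + 0.5), with 1 point for each of the 15398 autosomal genes that passed the filter; the line marks equal medians. Red points are the 99 genes higher in all 9 libraries, blue points the 69 genes lower in all 9. The called genes lie off the line by a median log2 ratio of 2.58 in either direction, the nearest by 0.84.

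Pseudogenes and noncoding transcripts took a larger share of the called genes than of all genes tested. Of all genes that passed the filter, 89.1% were protein-coding and 2.71% pseudogenes by the GENCODE annotation. Among the higher genes 69 were protein-coding, 10 were pseudogenes and 20 were other noncoding or unconfirmed transcripts. Among the lower genes 39 were protein-coding, 19 were pseudogenes and 10 were other transcripts, and 1 had no entry. A gene was counted as sharing sequence when at least 20% of its 31-base words occur in transcripts of another gene. That held for 41.4% of the higher and 39.1% of the lower genes, and for 16.2% of all genes that passed.

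In the 5 pairs printed here, of a gene and a near-identical pseudogene, one had a higher and the other a lower median in the 9 libraries. The ranges of both members were apart for the Rpl19 and Rpl37a pairs. In the other pairs 1 member overlapped. Rpl24 was at 72.1 to 120 CPM in the 9 against 29.4 to 105, Eif4a1 at 169 to 320 against 56.5 to 219, and Gm4366 at 167 to 266 against 17.4 to 241. The following stretches of 61 bases from the aligned part of each pair are shown to let the single differing base be seen, which is in capitals. They are from GENCODE M21 transcripts of GRCm38, 5′ to 3′ on the transcript strand, and were not read from these libraries. The genes lie at chr11:98026710-98030492 (Rpl19, plus strand), chr16:55966275-55971435 (Rpl24, plus), chr11:69666936-69672423 (Eif4a1, minus), chr19:8967041-8978479 (Eef1g, plus) and chr1:72711260-72713809 (Rpl37a, plus). The copies lie at chr8:19492906-19493623 (Rpl19-ps11, plus), chr9:116040593-116041064 (Gm9385, minus), chr1:60703932-60705149 (Eif4a-ps4, plus), chr7:116824510-116825851 (Gm4366, minus) and chr13:75644864-75645226 (Gm4149, plus).
Rpl19: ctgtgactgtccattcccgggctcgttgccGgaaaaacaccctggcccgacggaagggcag
Rpl19-ps11: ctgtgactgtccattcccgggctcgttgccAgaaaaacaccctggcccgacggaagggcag
Rpl24: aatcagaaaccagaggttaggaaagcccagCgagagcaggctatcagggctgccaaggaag
Gm9385: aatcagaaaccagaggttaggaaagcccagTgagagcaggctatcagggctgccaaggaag
Eif4a1: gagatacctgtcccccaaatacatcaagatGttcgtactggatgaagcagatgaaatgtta
Eif4a-ps4: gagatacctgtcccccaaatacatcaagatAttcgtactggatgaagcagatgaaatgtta
Eef1g: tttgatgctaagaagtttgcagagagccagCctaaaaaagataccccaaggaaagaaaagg
Gm4366: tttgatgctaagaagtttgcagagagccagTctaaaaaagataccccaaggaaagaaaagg
Rpl37a: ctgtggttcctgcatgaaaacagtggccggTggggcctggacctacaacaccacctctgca
Gm4149: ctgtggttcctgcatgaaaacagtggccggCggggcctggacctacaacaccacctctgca

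Counted from 1 at the 5′ end of each stretch, the pairs differ by G31A, C31T, G31A, C31T and T31C, with the base of the parent gene first. In 4 of the 5 pairs this is the 1 difference over the aligned coding sequence of the parent. Rpl19 and its copy differ in 1 of 591 bases, Rpl24 and its copy in 1 of 471, Eif4a1 and its copy in 1 of 1218 and Rpl37a and its copy in 1 of 276. Eef1g and Gm4366 differ in 5 of 1314 bases, of which the stretch shows 1.

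Rpl19 encodes a protein of the large ribosomal subunit. It was at 183 to 296 CPM in the 9 libraries (median 252) and at 2.50 to 108 in the others (median 7.61). Its pseudogene Rpl19-ps11 went the other way, at 2.06 to 5.46 CPM (median 2.60) against 93.0 to 639 (median 250). The sum of both was 254 CPM at the median in the 9 libraries and 259 in the others. The single genes are thus 33.1-fold and 96.3-fold apart between the sets in opposite directions, and their sum is level.

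Opposite levels of gene and copy were also found for other pairs. Rpl27 had a median of 72.8 CPM in the 9 and 6.63 in the others, its copy Rpl27-ps3 had 0.603 and 70.9, and the sum had 74.0 and 77.3. Ndufb4, a subunit of respiratory complex I, had medians of 22.6 and 3.74 CPM, while its copy Gm3244 had a highest value of 0.267 CPM in the 9 and a lowest of 7.93 in the others. The sum of that pair was 22.6 and 20.4 CPM. For Rpl24 the copy Gm9385 was at 0.225 to 1.11 CPM against 35.5 to 126, and the sum with Rpl24 was 103 and 105. Eif4a-ps4, a copy of the RNA helicase gene Eif4a1, was at 0.157 to 3.76 CPM against 44.6 to 220. Its sum with Eif4a1 had medians of 275 and 207 CPM, so there the sum was not level, though its ranges overlapped.

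In 2 of the printed pairs the parent gene was low. Eef1g, which encodes a subunit of translation elongation factor 1, was at 17.6 to 26.9 CPM in the 9 libraries (median 24.9) and at 108 to 301 in the others (median 170). Its copy Gm4366 had medians of 236 and 98.8 CPM, and the sum 261 and 279. Rpl37a was at 34.2 to 55.5 CPM against 64.2 to 213, its copy Gm4149 had medians of 79.5 and 12.9 CPM, and the sum 133 and 131.

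**Figure D2:**
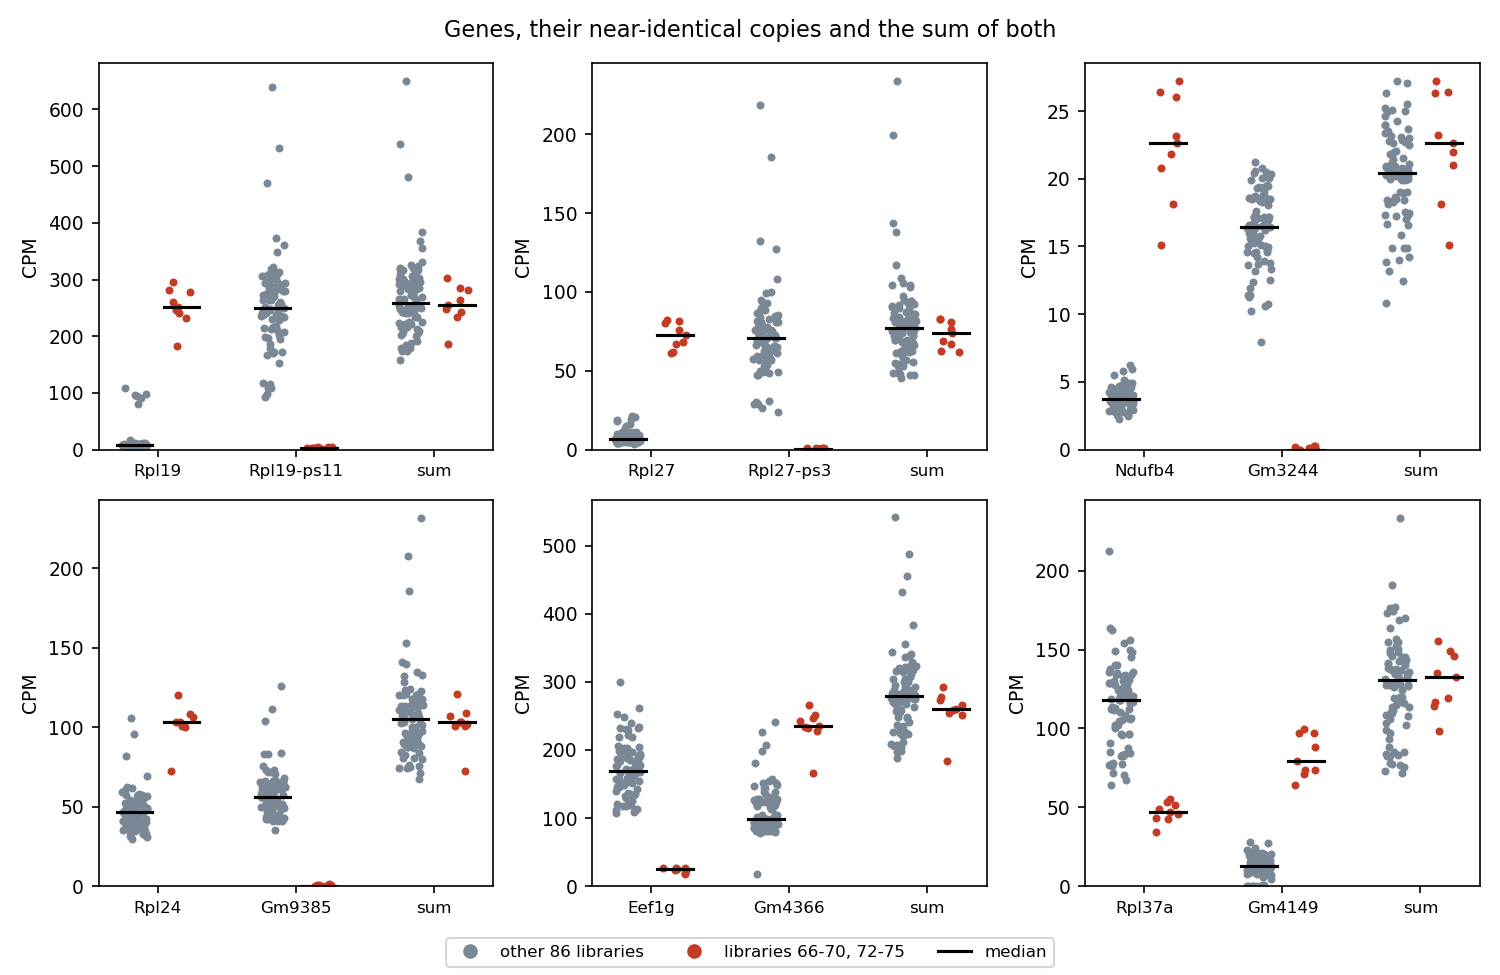
Level in CPM (linear axes from 0) of 6 genes, of the near-identical copy of each and of the sum of both, with 1 point per library, red for libraries 66 to 70 and 72 to 75 and grey for the other 86; black bars are medians. In each panel gene and copy are displaced in opposite directions while the red and grey sums overlap, as for Rpl19 with sums of 254 and 259 CPM at the median.

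Over all called genes, 57 had a partner in the table that holds at least 20% of their words. The sum of gene and partner overlapped between the sets for 49 of them, 26 of 33 higher and 23 of 24 lower genes. The log2 ratio of the partner had the opposite sign for 15 of the 33 higher and 18 of the 24 lower genes. Some partners were far more abundant, as Usp38 at a median of 42.8 CPM in the 9 beside 3.23 for Gm9725. In such pairs the sum follows the partner. For 6 of the 57 genes the partner was called in the other direction, so such pairs count from both sides. The median size of the log2 ratio went from 3.45 for the higher genes alone to 0.76 for the sums, and from 3.22 for the lower genes to 0.24. The genes were called for not overlapping, so part of that fall is built into the comparison, and how reads were assigned between copies was not tested. A mitochondrial copy gave a like picture. Gm10222, a nuclear copy of part of the mitochondrial genome on chromosome 1, had medians of 382 and 14.8 CPM, the mitochondrial gene mt-Nd4l had 20.0 and 313, and the sum 402 and 328.

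A set of coding genes with little or no shared sequence remained. Of the 69 higher coding genes, 48 shared under 20% of their words with another gene, and of the 39 lower ones 33 did. Leaving out every gene at or above 20% and those without an entry, 58 genes were higher and 41 lower.

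**Figure D3:**
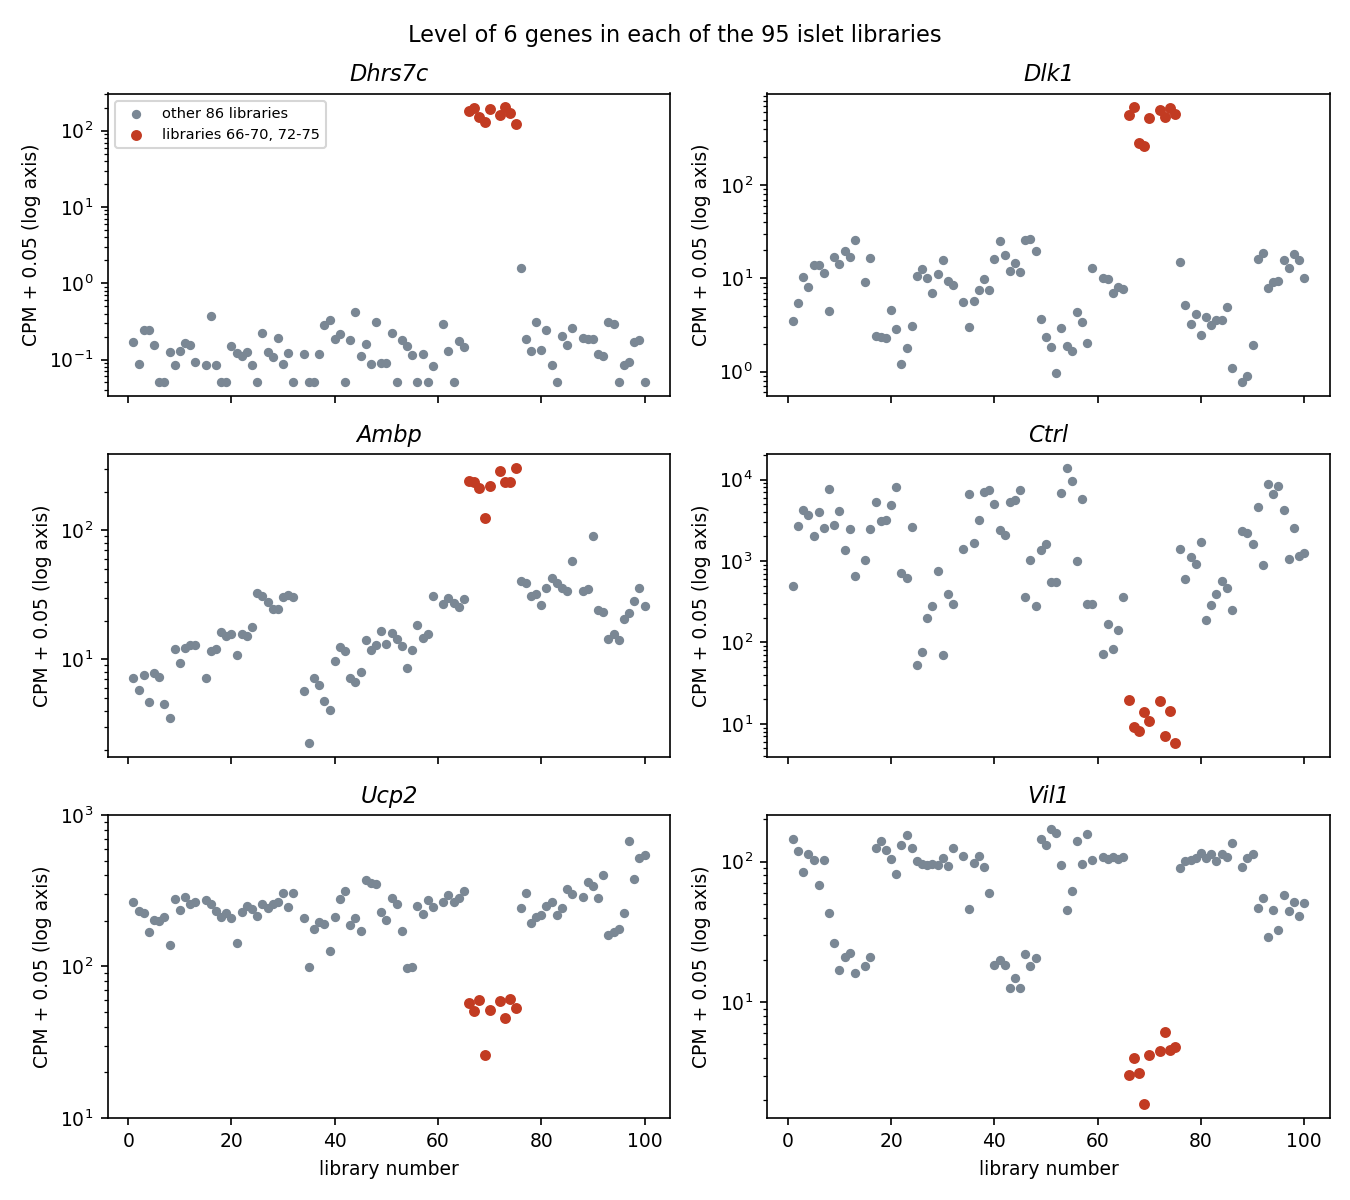
Level of 6 genes that share under 5% of their words with another gene, in each of the 95 libraries by library number, as CPM + 0.05 on log axes; red points are libraries 66 to 70 and 72 to 75. Dhrs7c, Dlk1 and Ambp lie above and Ctrl, Ucp2 and Vil1 below all grey points, and Dlk1 in libraries 68 and 69 is at 285 and 265 CPM, under the other 7.

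Among the higher genes Dlk1 had the widest gap after Dhrs7c on the log2(CPM + 0.5) scale. It encodes a membrane protein of the Notch ligand family and belongs to an imprinted gene cluster, in which the paternal chromosome expresses Dlk1 and the maternal one the noncoding RNAs Meg3, Rian and Mirg. The gene lies on chromosome 12 (109452823 to 109463336). Its level was 557 CPM in library 66, 682 in 67, 285 in 68, 265 in 69, 521 in 70, 637 in 72, 538 in 73, 669 in 74 and 582 in 75, a median of 557. In the others it was 0.716 to 26.2 CPM with a median of 7.89. The medians were 70.5-fold apart and every library of the 9 was at least 10.1-fold above all others.

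The rest of the cluster was higher by far less. Meg3 had medians of 1942 CPM in the 9 and 970 in the others, Rian 976 and 564, and Mirg 33.5 and 17.0. Rtl1, a coding gene of the cluster expressed from the paternal chromosome, had medians of 1.48 and 0.894 CPM. The ranges of these 4 genes overlapped. On the other side of Dlk1, the nearest tested gene Begain had medians of 1.64 and 0.554 CPM with overlapping ranges, and Wdr25 beyond it had 9.70 and 10.2.

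A pair of neighbouring genes on chromosome 4 was higher as well. Ambp (63143275 to 63154799) encodes the precursor of alpha-1-microglobulin and the protease inhibitor bikunin, and it was at 124 to 304 CPM (median 237) against 2.19 to 90.1 (median 15.6). Kif12 (63165634 to 63172131), a kinesin motor gene, was at 414 to 950 CPM (median 807) against 75.3 to 384 (median 201). The gap for Kif12 was narrow, 1.08-fold between library 69 and the highest of the others, and without library 69 the lowest of the remaining 8 is 616 CPM. The next genes outward, Zfp618 and Col27a1, had medians of 28.2 against 19.0 and 34.5 against 38.2 CPM.

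On chromosome 9, 3 called genes lay within 182.6 kb (121797627 to 121980208). Ccdc13, a centriolar satellite protein gene, was at 4.58 to 9.89 CPM against 0 to 0.644. Higd1a, a hypoxia-inducible mitochondrial protein gene, was at 13.95 to 33.1 CPM against 1.43 to 10.3, and 27.2% of its words are shared. Fam198a was at 2.82 to 6.44 CPM against 0.0609 to 1.46. Of the 168 called genes, 15 lay in 7 such runs of called genes (within 3 tested genes of each other), and 6 of the 7 runs went in 1 direction. With 1.09% of all tested genes called, some would lie that near to another without any link, and how many was not computed. Gm7068 and Gm16432, which form a run on chromosome 1, also share sequence.

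Among signalling and receptor genes, Nr1i2, the pregnane X receptor, which senses foreign compounds and bile acids, was at 6.75 to 19.8 CPM (median 12.4) against 0 to 1.91 (median 0.241). Pde11a, a phosphodiesterase that degrades cyclic AMP and cyclic GMP, was at 4.05 to 9.46 CPM against 0 to 0.701. Gpr26, an orphan G protein-coupled receptor, was at 7.88 to 24.1 CPM against 0.437 to 2.25. Each of these 3 had a gap of more than 3-fold.

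Lrrc39, a leucine-rich repeat protein known from the muscle M-band, was at 15.3 to 30.7 CPM against 0.161 to 4.01, and 35.6% of its words are shared. Fryl, a large scaffold protein gene, was at 154 to 358 CPM against 32.4 to 151, so the sets nearly met. Pdk4, a kinase that inhibits pyruvate dehydrogenase, was at 102 to 153 CPM (median 131) against 6.85 to 101 (median 37.1), with a gap of 1.02-fold. C4a, a complement component 4 locus not annotated as protein-coding here, was at 10.9 to 23.4 CPM against 1.18 to 10.2. It shares 43.3% of its words with C4b, and the summed levels of C4a and C4b overlapped.

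Genes seen in the 9 libraries alone were looked for next. With the rule of at least 0.5 CPM in all 9 and below 0.1 CPM in all 86, 0 genes were seen. Dhrs7c did not meet it, since other libraries held some of its reads, up to 42 counts (1.56 CPM) in library 76. A wider rule chosen after seeing the data, at least 1 CPM in all 9 and below 1 CPM in all 86, gave 15 genes. These passed the filter only through the 9 libraries, as did other higher genes such as Dhrs7c. Besides Ccdc13 and Pde11a they include Pou3f3, a POU transcription factor of the nervous system and kidney, at 1.60 to 5.48 CPM against 0 to 0.764, with no count in 47 of the 86. They also include Hfm1, a meiotic DNA helicase, at 1.38 to 2.77 CPM against 0 to 0.708, and Ppp1r14c, an inhibitor of protein phosphatase 1, at 3.39 to 11.9 CPM against 0 to 0.865. Of the words of Ppp1r14c, 29.8% occur in other genes. The histone gene Hist1h2bl was at 4.99 to 8.79 CPM against 0.770 at most, and 88.6% of its words occur in other genes. Of the 15 genes, 9 had a median below 0.1 CPM in the 86.

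Ctrl had the largest fold among the lower coding genes with medians above 3 counts in both sets. It encodes chymotrypsin-like protease, a digestive enzyme made by acinar cells, on chromosome 8 (105931994 to 105933862). It was at 19.7 CPM in library 66, 9.18 in 67, 8.08 in 68, 13.97 in 69, 10.7 in 70, 19.1 in 72, 6.98 in 73, 14.4 in 74 and 5.73 in 75. In the others it ran from 53.0 to 13850 CPM with a median of 1509, 141-fold above the median of the 9.

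As a group, the acinar genes were present in the 9 libraries. The 29 genes of the acinar list summed to 3.98% to 33.4% of counts in the 9 and to 0.244% to 37.8% in the others, and Ctrl was the 1 member whose CPM ranges did not overlap. As a share of the acinar sum, a scaling added after seeing the data, Ctrl was 0.00418% to 0.0373% in the 9 and 1.76% to 3.70% in the others. Ctrb1, chymotrypsinogen B, was 17.4% to 20.6% of that sum in the 9 and 7.88% to 24.8% in the others. On this scale Pnliprp2, a pancreatic lipase-related gene, also separated, at 0.931% to 1.05% against 0.356% to 0.835%, and the other 27 genes overlapped. Some of these 27 were lower at the median too, as Prss3 at 0.00226% in the 9 against 0.0299% in the others. Prss1 was at 0.000522% against 0.00256%. In CPM, 17 of the 29 members had a log2 ratio of medians above 0 and 12 below. Library 69, with the highest acinar share of the 9, held 13.97 CPM of Ctrl.

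**Figure D4:**
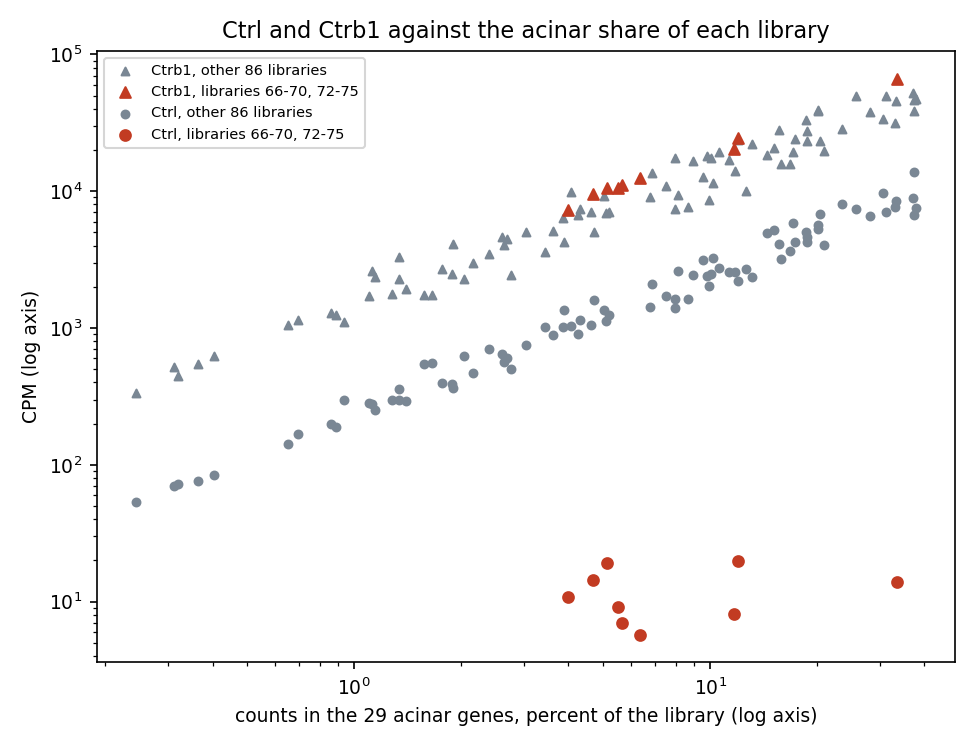
Level of Ctrl (circles) and Ctrb1 (triangles) in CPM against the share of counts in the 29 acinar genes, both on log axes, with 1 point of each shape per library, red for libraries 66 to 70 and 72 to 75. The red triangles lie among the grey ones, whereas the red circles stay between 5.73 and 19.7 CPM over acinar shares of 3.98% to 33.4%.

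Ucp2, an inner mitochondrial membrane carrier studied in beta cells for its effect on insulin secretion, lies on chromosome 7 (100493337 to 100502020). It was at 57.3 CPM in library 66, 50.6 in 67, 59.95 in 68, 25.8 in 69, 51.7 in 70, 58.7 in 72, 45.7 in 73, 60.9 in 74 and 53.0 in 75. The others ran from 97.2 to 678 CPM with a median of 245, 4.63-fold above the median of the 9. Dnajb13, whose annotated span overlaps the end of Ucp2, had medians of 0.480 and 1.99 CPM, and whether the counting used strand is not given in the sources used here. On the other side of Ucp2, Ucp3 had medians of 0.309 and 0.0451 CPM and Gm10603 had 1.83 and 0.797, both with overlapping ranges. Farther out, C2cd3 had medians of 62.9 and 65.6 CPM and Ppme1 had 79.8 and 72.4.

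Vil1 encodes villin, which bundles actin in microvilli. It was at 1.83 to 6.05 CPM in the 9 libraries (median 4.14) and at 12.5 to 171 in the others (median 96.1). Dsp, the desmosome protein desmoplakin, was at 27.0 to 36.6 CPM against 49.8 to 205. Grin2c, an NMDA receptor subunit, was at 0.191 to 0.894 CPM against 3.61 to 41.2. The gene of carboxypeptidase M, which trims peptides at the cell surface, was at 1.03 to 2.24 CPM against 5.98 to 37.3.

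Lgals12, a galectin, was at 1.86 to 3.40 CPM against 7.14 to 28.8, and Isoc2a, an isochorismatase domain gene, at 2.22 to 3.89 against 6.96 to 17.2. The interferon-induced gene Ifi27 was at 3.96 to 12.5 CPM against 15.9 to 77.1, and it was the 1 called gene among 35 of the interferon list. The median log2 ratio of that list was 0.07, below the 0.16 of all genes. Zfp605, a zinc finger gene, reached at most 0.193 CPM in the 9 libraries and was at 2.45 to 20.9 in the others.

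Loss was counted by a less strict rule than appearance, so the counts are not comparable. A gene counted as lost when all 9 libraries were below 0.1 CPM and the median of the others was 0.5 CPM or more, which held for 31 genes (0.201%). Of these, 9 were protein-coding, 13 pseudogenes and 9 other transcripts, and 20 shared at least 20% of their words. In 5 of the 31 every one of the 86 libraries was at 0.1 CPM or more, while 15 were below 0.1 CPM in 10 or more of the 86 as well. Those 15 were thus also near 0 in part of the other libraries.

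The clearest coding examples were Oas1c and Prss41, though 25.2% of the words of Oas1c occur in other genes. Oas1c, of the oligoadenylate synthetase family of antiviral enzymes, had no count in 8 of the 9 libraries and 0.0446 CPM in the other one, and was at 0.817 to 9.16 CPM in the 86. Prss41, a serine protease gene, was at 0 to 0.0816 CPM against 0.497 to 10.6. Adamts18, a secreted metalloprotease gene, was at 0 to 0.0816 CPM against a median of 4.03, with 3 of the 86 below 0.1. The highest median of a lost gene was that of the pseudogene Gm6969, at 18.7 CPM in the 86 and without a count in the 9. Against a floor of 3 counts per library it was at least 156-fold lower. Its parent Cox7a2l, a respiratory chain assembly gene, had medians of 138 and 149 CPM.

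Over the 34 lists, 6 of the 469 genes that passed the filter were called (1.28%, each gene counted once), near the 1.09% of all genes tested, and Dhrs7c, by which the libraries were chosen, is 1 of the 6. They were Dhrs7c, C4a and Pdk4 (higher) and Ctrl, Ucp2 and Ifi27 (lower). All other members overlapped between the sets, and the shifts below are medians only.

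Genes of delta and alpha cells lay at the upper side in the 9 libraries. The 6 delta cell genes had a median log2 ratio of 1.23, all 6 above 0, against 0.16 over all genes. Rbp4, a retinol carrier made by delta cells, had medians of 317 and 85.9 CPM, and 0 of the 86 libraries reached 317. Hhex, a delta cell transcription factor, had 38.4 and 13.6 CPM. Somatostatin itself, Sst, had medians of 7715 and 2435 CPM with ranges of 3274 to 10664 and 558 to 6729.7. Of 9 alpha cell genes, the 6 that passed the filter had a median log2 ratio of 0.96, with 5 above 0 and 1 below. Gcg, glucagon, had medians of 24492.5 and 12031 CPM. The upper side was not particular to these lists. The 7 glial genes that passed had a median log2 ratio of 0.79 and the 12 lymphocyte genes 0.76, all above 0. The duct and endothelial lists were at -0.11 and 0.03.

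Beta cell genes were nearer to the level of all genes. The 20 genes of the beta cell list had a median log2 ratio of 0.30, with 15 above 0. Glp1r, the receptor of the incretin GLP-1, had medians of 326 and 188 CPM, whereas Abcc8, a subunit of the ATP-sensitive potassium channel, had 634 and 1045. Ins2 had medians of 67711 and 117832 CPM with overlapping ranges, against nearly level values of Ins1. With TMM scaling the medians of the delta, alpha and beta cell lists were 1.12, 0.67 and 0.09, beside -0.01 for all genes.

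**Figure D5:**
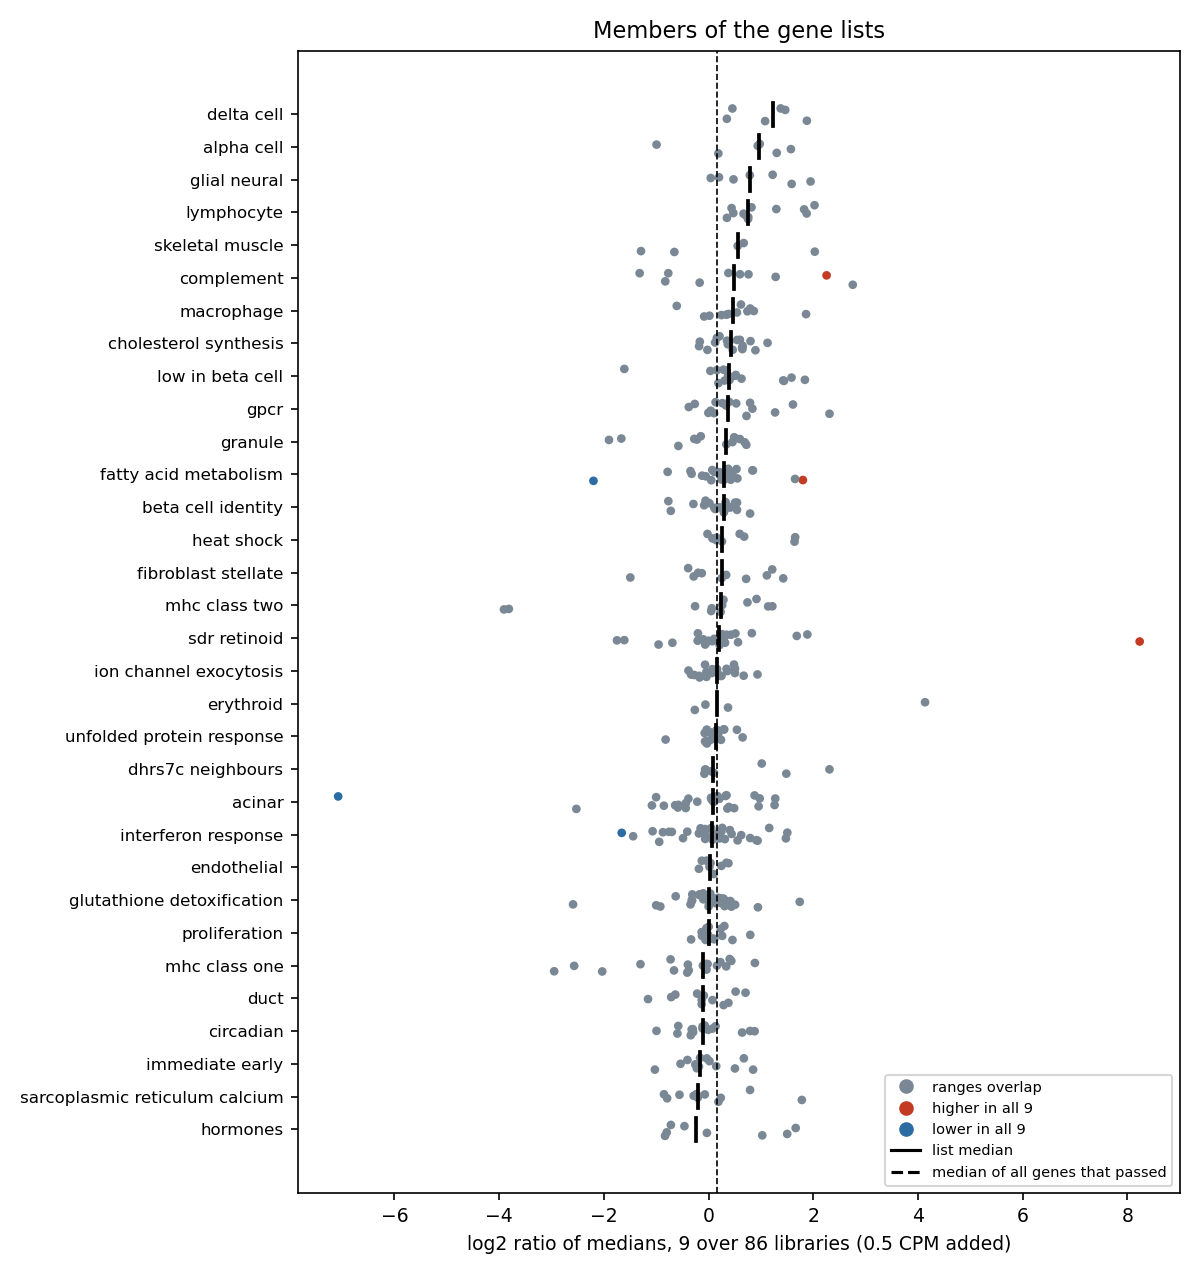
Log2 ratio of the medians, 9 libraries over 86, with 0.5 CPM added, for each member that passed the filter of every list with at least 3 such members; black bars are list medians and the dashed line is the median of all genes, 0.16. Most members lie within a few log2 units of the line, the delta cell list has the highest median at 1.23, and Dhrs7c and Ctrl lie farthest out.

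The 10 genes of widest log2 range within the 9 libraries, among those with a median of 5 CPM or more there, included immune genes, the Reg genes and 2 pseudogenes. Ighm, the IgM heavy chain gene of B cells, ranged from 2.06 CPM in library 69 to 1631 in library 74, and Igkc, a light chain gene, from 0.153 to 661 in the same libraries. C3, the central complement component, ranged from 2.98 to 372 CPM. Libraries 67, 69 and 70 were lowest and library 74 highest for all 3 genes. The Reg2 and Reg3b genes, secreted lectins of the injured pancreas, ranged from 1.06 to 80.6 and from 0.668 to 58.3 CPM, and their highest libraries were 75 and 74.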

How the data were processed

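Per the labels' protocols, islet RNA was extracted with a column kit including DNase digestion, spiked with ERCC transcripts, and made into libraries from poly(A) RNA. The authors deposited a table of estimated counts per gene (67.7% of its cells whole to within 1e-06) and, for the same genes and libraries, variance-stabilised values on a scale close to log2. Per the submitters' processing notes, GRCm38 and DESeq2 were named; aligner, counter and use of strand are not given in the sources used here. All 95 columns matched a sample by number.

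Counts were divided by column sums (CPM). Calls compare ranges, with the filter and thresholds given above. The 31-base words came from GENCODE M21 transcripts, whose annotation matched 20532 of 20638 genes; the sequences and gene classes are from it. TMM factors came from edgeR 4.0.16 and size factors from DESeq2 1.42.0 (R 4.3.3; Python 3.11.15). The calling rule was run on simulated counts in which all libraries had a common profile apart from the genes changed. Differences in cell mixture and shared sequence were not simulated, so that run cannot speak to them.

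Named were Dhrs7c and, among called genes of each direction, the 15 with the widest gap, the 10 coding ones with the widest gap and the 6 of highest median; the 8 highest lost genes and any seen in the 9 alone; called members of 34 lists; the 10 genes most variable within the 9 (median of 5 CPM or more); and the widest run. Several of these are given by count only. Neighbours and copies of named genes, list members that were not called, and Pou3f3, Hfm1, Ppp1r14c, Ndufb4, Gm4149 and Ambp were chosen after their values were seen. Members and lists were chosen with earlier results of these data known. Levels of genes with shared sequence are uncertain. Depth limits calls near 0.1 CPM, which is about 3 counts.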

Additional observations from a re-analysis of the deposited data

Results flagged for a closer look

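Values of single libraries that stand apart from the other 8 were looked for in 92 values (named genes and list sums), by the gap to the nearest library over the whole range on the log2(CPM + 0.5) scale, against Dixon's critical value at the 95% level for 9 libraries. There were 23 such values. A chance rate of 1 in 20 cannot be set beside them, since some named genes were chosen for a wide range within these 9 libraries. The values share library 69 and its total and are not independent.

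Library 69 was flagged as lowest for 5 genes of the named set with the levels 14.6 CPM (Gm10045), 219 (Gm10222), 154 (Fryl), 183 (Rpl19) and 25.8 (Ucp2). It was also flagged for the pseudogene Gm12245, at 0.00109 CPM. It was flagged as lowest for the summed levels of 16 lists. The islet cell sums were 85689 CPM for hormones, 7769 for beta cell identity, 928 for alpha cell and 224 for delta cell genes. Sums of other cell types were 544 CPM for endothelial, 47.0 for glial and 9.46 for adipocyte genes. Sums of functions were 1569 CPM for sarcoplasmic reticulum calcium, 533 for glutathione and detoxification, 391 for MHC class I, 125 for interferon response, 801 for cholesterol synthesis, 1665 for fatty acid metabolism, 1380 for ion channels and exocytosis, 11937 for granule and 1081 for receptor genes. Library 69 was also lowest, without a flag, for other named genes such as Dlk1, at 265 CPM, and for other list sums such as heat shock. The acinar share of this library was 33.4%, and its part in these values was not tested.

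Library 74 was highest for the macrophage list, at 277 CPM, against 95.0 to 126 in the other 8. The same library had the highest Ighm and Lyz2 levels of the 9.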

How the results depend on the processing

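The count of higher genes was 99 with column sums. It was 223 with TMM factors, 228 with DESeq2 size factors, 227 with the deposited variance-stabilised values and 156 with column sums without acinar and hormone genes. It was 59 with a filter of 5 CPM in 9 libraries, 65 with a mean of 1 CPM or more and 58 without genes that share 20% of their words. Leaving out 1 of the 9 libraries gave 99 to 293, the highest without library 69. The count of lower genes was 69; it was 151, 156 and 157 with TMM, DESeq2 and variance-stabilised values, 119 without the 10 other libraries above 25% acinar counts, 41 without genes that share words, and 69 to 74 with 1 library left out. The count of lost genes was 31; it was 8 with the 5 CPM filter, 20 with the mean filter, 11 without genes that share words, and 31 to 37 with 1 library left out. The count of genes seen in the 9 alone was 0 in each setting run. Variance-stabilised values cannot give the lost and seen-alone counts, which need CPM levels. All other counts stayed within 1.5 times. The members of the lost set changed more than their count. With column sums without acinar and hormone genes 25 genes were lost, 16 of the 31 among them. With TMM factors 31 were lost, 26 of the first 31 among them.

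For the 66 named genes no log2 ratio of a called gene changed sign with TMM, DESeq2, another pseudocount or 1 library left out. With a pseudocount of 0.1 CPM 30 of 66 moved by more than the spread within the 9, and with 1 CPM 29 did. Adding 0.5 CPM understates ratios of low genes. No paired analysis was possible because the labels give no groups or replicate numbers. Depth limits statements near 0.1 CPM.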

Other observations

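Xist, the X chromosome gene whose RNA coats the inactive X, was at 0.632 to 3.31 CPM in libraries 66 to 70 and at 994 to 1270 CPM in libraries 72 to 75. Dhrs7c was at 130 to 201 CPM in the former and at 123 to 203 in the latter.

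Among genes of antigen presentation, H2-Eb1, a class II chain, had medians of 2.19 CPM in the 9 libraries and 37.4 in the others, with ranges of 0.534 to 4.33 and 0.618 to 1729. H2-Aa, another class II chain, was at 20.3 to 137 CPM against 11.3 to 1837. H2-Q1, a class I gene, reached 0.0776 CPM at most in the 9 against a median of 0.732 in the others, and 24.1% of its words are shared.

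The alpha globin gene Hba-a1 was at 9.09 to 21.3 CPM in the 9 libraries against a median of 0.261 and a highest value of 13.8, while its near-identical neighbour Hba-a2 overlapped widely. Of the words of Hba-a1, 75.5% occur in another gene. Aldh1a3, a retinaldehyde dehydrogenase known as a marker of dedifferentiated beta cells, had medians of 0.991 CPM and 4.05.

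The highest values of the other libraries, which set the edge for higher genes, were spread over 49 libraries, the most frequent being library 90 with 7 genes. For lower genes the edge was set by 29 libraries, and library 54 set it for 15 genes.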
